A study of Mus musculus with 6 samples.

Results

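Rab proteins are the largest family of small GTPases and mark the membranes of the secretory and endocytic routes. The genes described here are those whose symbol is Rab followed by a number, with or without a letter and a further digit, and whose reads summed to at least 60 counts over 6 mouse ovary libraries. Of 18280 genes in the deposited table, 59 carry such a symbol and 51 reached the minimum. The other 8 summed to between 1.7 counts (Rab3c) and 48 counts (Rab26), and the lowest members were Rab3b with 136, Rab19 with 144 and Rab42 with 175. The 51 genes lie on 18 chromosomes.

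A Rab cycles between a GTP-bound form, which sits on a membrane and recruits effectors, and a GDP-bound form, which is held in the cytosol by GDP dissociation inhibitor. Guanine nucleotide exchange factors load GTP, GTPase-activating proteins return the Rab to GDP, and a prenyl tail added by Rab geranylgeranyl transferase with its escort protein anchors it in the membrane. In the ovary these routes carry gonadotropin receptors, lipoprotein particles and secreted hormones, and DENND1A is an exchange factor for Rab35, which acts in endosomal recycling.

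Whole ovaries of 3 Dennd1a transgenic mice (TG) and of 3 wild-type animals (WT) gave the RNA, all collected 44 h after an injection of pregnant mare serum gonadotropin (PMSG), which has follicle-stimulating activity. The study asked about the response to FSH in the transgenic animals. The transgene's promoter and construct, the number of founder lines, the strain, the age and any batch are not given in the sources used here. Libraries were read on a BGISEQ-500 instrument and held 17075484 to 18516171 counts.

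Counts on Rab genes made up 0.415% to 0.434% of each library. Markers of granulosa cells (11 genes, summed 8158 to 9102 CPM in TG and 7804 to 8959 CPM in WT), of theca and interstitial cells (8 genes) and of oocytes (13 of 14 tested) were present in every library, as the tissue label says. CPM is the count relative to the library's size after scaling by TMM factors, and FPKM is the deposited level per transcript length and library size. TG replicate 2 stood apart by adipocyte markers, with 87.9 CPM for Car3, 86.8 CPM for Cfd and 48.1 CPM for Fabp4, where the next library, WT replicate 3, had 15.6, 9.45 and 5.81 CPM. The summed adipocyte level ran from 28.7 to 244 CPM in TG and from 18.4 to 47.7 CPM in WT, and that of oviduct and surface epithelium markers from 87.6 to 146 CPM and from 122 to 160 CPM. Between the genotypes, edgeR's quasi-likelihood test called 149 of 14124 tested genes at an adjusted p under 0.05, among them 17 of 17 tested interferon-response genes, which fell in TG with a median log2 fold change of -2.98.

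Dennd1a itself, the gene carried by the transgene, was read at 570, 582 and 588 CPM in the TG libraries and at 44.6, 39.5 and 49.3 CPM in the WT libraries. It rose 13.04-fold, a log2 fold change of 3.70 with a standard error of 0.10 and an adjusted p of 4.02e-07 (edgeR). All 3 TG libraries lay above all 3 WT libraries, and an exact two-sided permutation test over the 20 arrangements gave p = 0.1, the smallest that 3 against 3 allows. Reads of the transgene and of the endogenous gene cannot be told apart in these counts.

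Rab35, the GTPase that DENND1A loads with GTP (Entrez 77407, chr5:115631904-115647158 in GRCm38.p6, overlapping Mir7030), was read at 77.3, 77.2 and 80.7 CPM in TG and at 76.5, 84.8 and 82.6 CPM in WT. The means were 78.4 ± 1.97 and 81.3 ± 4.26 CPM (SD, n = 3 each), and the groups overlapped. The log2 fold change was -0.05 (SE 0.08), with a 95% interval from -0.23 to 0.12 and an edgeR adjusted p of 0.9997. The exact two-sided permutation test gave p = 0.4. Under 17 alternative settings the estimate stayed between -0.10 and -0.02.

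Per length, on the deposited FPKM scale, Dennd1a stood at 147 ± 1.85 in TG and 11.2 ± 1.33 in WT (SD, n = 3 each), and Rab35 at 38.4 to 40.6 in TG and 38.6 to 42.2 in WT. The ratio of Dennd1a FPKM to Rab35 FPKM was therefore 3.72, 3.80 and 3.68 in the TG libraries and 0.293, 0.232 and 0.302 in the WT libraries. On this scale Dennd1a stood above Rab35 in every TG library and below it in every WT library. The length of the transgene's transcript is not given in the sources used here, so the TG ratio rests on the length assumed for Dennd1a.

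The promoter window of Rab35 is shown first because the gene is the known target of DENND1A, and windows of Rab42, Rab19 and Rab5a follow because they carry the motif matches named after them and because Rab42 and Rab19 had the highest and the lowest fold change of the family. All come from RefSeq on build GRCm38.p6, run 5′ to 3′ on the gene's strand, and cover 250 bases before to 50 bases after the start. Capitals mark matches to a motif searched on both strands.
Rab35, chr5:115631737-115632036, plus strand; capitals are a pair of overlapping GC boxes (GGGCGG) from base -89:
Rab35: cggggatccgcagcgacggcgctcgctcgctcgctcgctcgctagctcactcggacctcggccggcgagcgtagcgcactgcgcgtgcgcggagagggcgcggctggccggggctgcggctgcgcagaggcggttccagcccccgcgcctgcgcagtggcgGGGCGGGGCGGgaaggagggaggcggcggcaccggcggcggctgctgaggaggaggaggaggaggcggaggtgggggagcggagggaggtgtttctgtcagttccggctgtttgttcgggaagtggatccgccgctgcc
Rab42, chr4:132303307-132303606, minus strand; capitals are a GC box at base -31:
Rab42: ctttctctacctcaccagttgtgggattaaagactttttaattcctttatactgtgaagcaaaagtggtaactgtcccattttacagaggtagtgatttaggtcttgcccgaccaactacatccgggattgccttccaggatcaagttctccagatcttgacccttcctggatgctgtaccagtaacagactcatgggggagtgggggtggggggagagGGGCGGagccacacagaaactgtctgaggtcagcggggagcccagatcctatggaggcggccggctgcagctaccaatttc
Rab19, chr6:39381103-39381402, plus strand; capitals are overlapping matches on the reverse strand to the interferon-stimulated response element (GAAANNGAAA) from base -10:
Rab19: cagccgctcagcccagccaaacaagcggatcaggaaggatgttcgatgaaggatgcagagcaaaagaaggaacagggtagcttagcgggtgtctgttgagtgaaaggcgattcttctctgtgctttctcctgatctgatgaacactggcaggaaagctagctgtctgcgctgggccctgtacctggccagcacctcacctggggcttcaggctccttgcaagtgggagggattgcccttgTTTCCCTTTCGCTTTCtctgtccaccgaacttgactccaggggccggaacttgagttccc
Rab5a, chr17:53478984-53479283, plus strand; capitals are a cyclic AMP response element (TGACGTCA) at base -28:
Rab5a: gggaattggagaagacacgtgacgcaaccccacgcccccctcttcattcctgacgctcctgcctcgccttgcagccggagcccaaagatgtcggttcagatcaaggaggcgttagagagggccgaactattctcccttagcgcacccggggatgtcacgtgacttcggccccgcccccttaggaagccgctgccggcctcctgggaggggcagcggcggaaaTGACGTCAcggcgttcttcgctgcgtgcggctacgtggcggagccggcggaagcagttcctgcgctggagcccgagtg

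RefSeq promoter windows were matched for 43 of the 51 genes by symbol, 55 windows in all. A GC box (GGGCGG), the letters bound by Sp1-type factors, was found in 33 of the 43 genes (76.7%). By window the share was 69.1% of the 55, against 35.7% of all 32851 windows. The windows held a median of 20 CpG pairs (3 to 45), against 7 over all windows, with a median GC content of 61.3% against 52.7%. The Rab35 window held 43 CpG pairs, while the windows of Rab42 and Rab19 held 6 and 9. A TATA box (TATAAA), counted on either strand anywhere in the window, was found in 7.27% of the windows against 13.6% of all. The genes were Rab39b, Rab3b and Rab42, among the lowest members in the ovary, and Rab7, the highest. A relation between motif and level was not tested. The E-box (CACGTG) was found in Rab20, Rab21, Rab23, Rab24, Rab27a and Rab5a (10.9% of windows against 7.15%). The cyclic AMP response element was found in Rab5a only (1.82% against 1.79%) and the interferon-stimulated response element in Rab19 only (1.82% against 3.44%). A match describes the letters and is no evidence of binding.

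Transcript levels of the family spanned a 526-fold range of mean FPKM. In the TG libraries the 51 genes summed to 1985 ± 26.4 FPKM and in the WT libraries to 2004 ± 36.7 FPKM (SD, n = 3 each). Mean levels were at or above 100 FPKM for 5 genes, from 10 to 100 for 29, from 1 to 10 for 13 and under 1 for 4. The 10 highest genes held 56.0% of the family's FPKM.

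Rab7, which directs late endosomes and autophagosomes to lysosomes, was the highest, at 220, 205 and 215 FPKM in TG and 210, 214 and 221 FPKM in WT. It alone held 10.7% of the family's FPKM. Rab5c, a GTPase of early endosomes, followed at 136, 148 and 145 FPKM in TG and 143, 152 and 157 FPKM in WT. Rab2a, which acts between the endoplasmic reticulum and the Golgi, stood at 129, 145 and 138 FPKM in TG and 134, 141 and 129 FPKM in WT. Within every library Rab5c lay above Rab2a, although their ranges across libraries overlapped. Rab11b, a recycling-endosome GTPase, was read at 117, 122 and 122 FPKM in TG and 123, 121 and 132 FPKM in WT, and Rab1b, which acts in traffic from the endoplasmic reticulum to the Golgi, at 112, 113 and 123 FPKM in TG and 113, 127 and 135 FPKM in WT.

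Rab1a, the close relative of Rab1b, came next at 93.6, 92.0 and 90.1 FPKM in TG and 90.3, 88.1 and 79.2 FPKM in WT, and Rab11a at 80.1, 83.9 and 75.5 FPKM in TG and 80.5, 80.5 and 64.8 FPKM in WT. Both were lowest in WT replicate 3. Rab10, which acts in exocytosis and GLUT4 traffic, had 78.7, 77.5 and 76.0 FPKM in TG and 77.0, 75.9 and 69.0 FPKM in WT. Rab14, of the Golgi and endosomes, had 69.1, 67.3 and 68.9 FPKM in TG and 72.5, 69.8 and 62.3 FPKM in WT, and Rab12, which sends receptors to degradation, had 66.9, 63.6 and 72.3 FPKM in TG and 67.6, 66.3 and 63.9 FPKM in WT. The ranges of neighbours in the order from Rab11a to Rab12 overlapped across libraries, although Rab10 lay above Rab14 within every library. Rab35 was the 20th, with a mean of 40.1 FPKM, between Rab27a (43.8) and Rab18 (39.7).

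**Figure D1:**
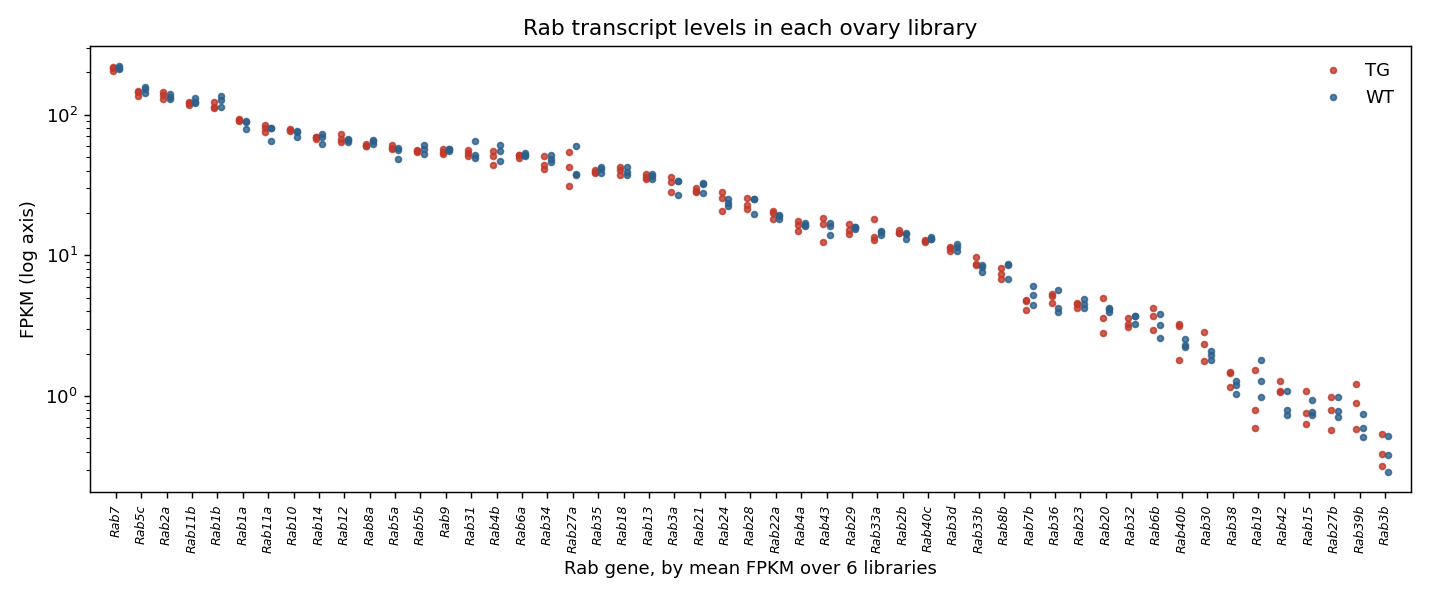
FPKM of each of the 51 Rab genes (log axis) in the 3 TG and 3 WT libraries, 1 point per library, ordered by mean level. Rab7 stands at the top near 214 FPKM and Rab3b at the bottom near 0.41 FPKM, and the colours overlap along nearly the whole order.

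At the low end, Rab3b, of synaptic and hormone vesicles, had a mean of 0.41 FPKM, Rab39b 0.76, Rab27b 0.80, and Rab15 0.82 FPKM. Genes below the count minimum included the epithelial Rab25 (33 counts over the 6 libraries) and Rab17 (26), and the secretory Rab26 (48), Rab37 (46) and Rab3c (1.7). Their levels were too low for a comparison.

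No Rab gene passed the test between the genotypes. Of the 51 genes, all of which passed the filter on low counts, 0 were called by edgeR at an adjusted p under 0.05 (lowest adjusted p 0.9997), where 1.05% of all tested genes were called. At an unadjusted p under 0.05 there was 1 gene, 1.96% of the members against 4.08% of all tested genes. DESeq2 and limma-voom also called 0 members. The median log2 fold change was -0.02, against 0.00 over all tested genes, with 23 genes above 0 and 28 below. The median absolute log2 fold change was 0.07, against 0.08 over all tested genes.

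The replicates bound most of these differences closely. The 95% interval of 48 of the 51 genes (94.1%) lay within 2-fold either way, against 89.6% of all tested genes, and that of 40 genes (78.4%) within 1.5-fold, against 74.5%. The 3 genes whose interval passed 2-fold were Rab42, Rab39b and Rab19, each with a mean under 4 CPM in both groups. The genotypes stood apart without overlap in 4 genes, Rab42, Rab33b, Rab11b and Rab40c, which is 7.84% of the members against 8.25% of all tested genes. Fewer cells of a type and less RNA per cell cannot be told apart in whole ovaries, here and in every comparison that follows.

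**Figure D2:**
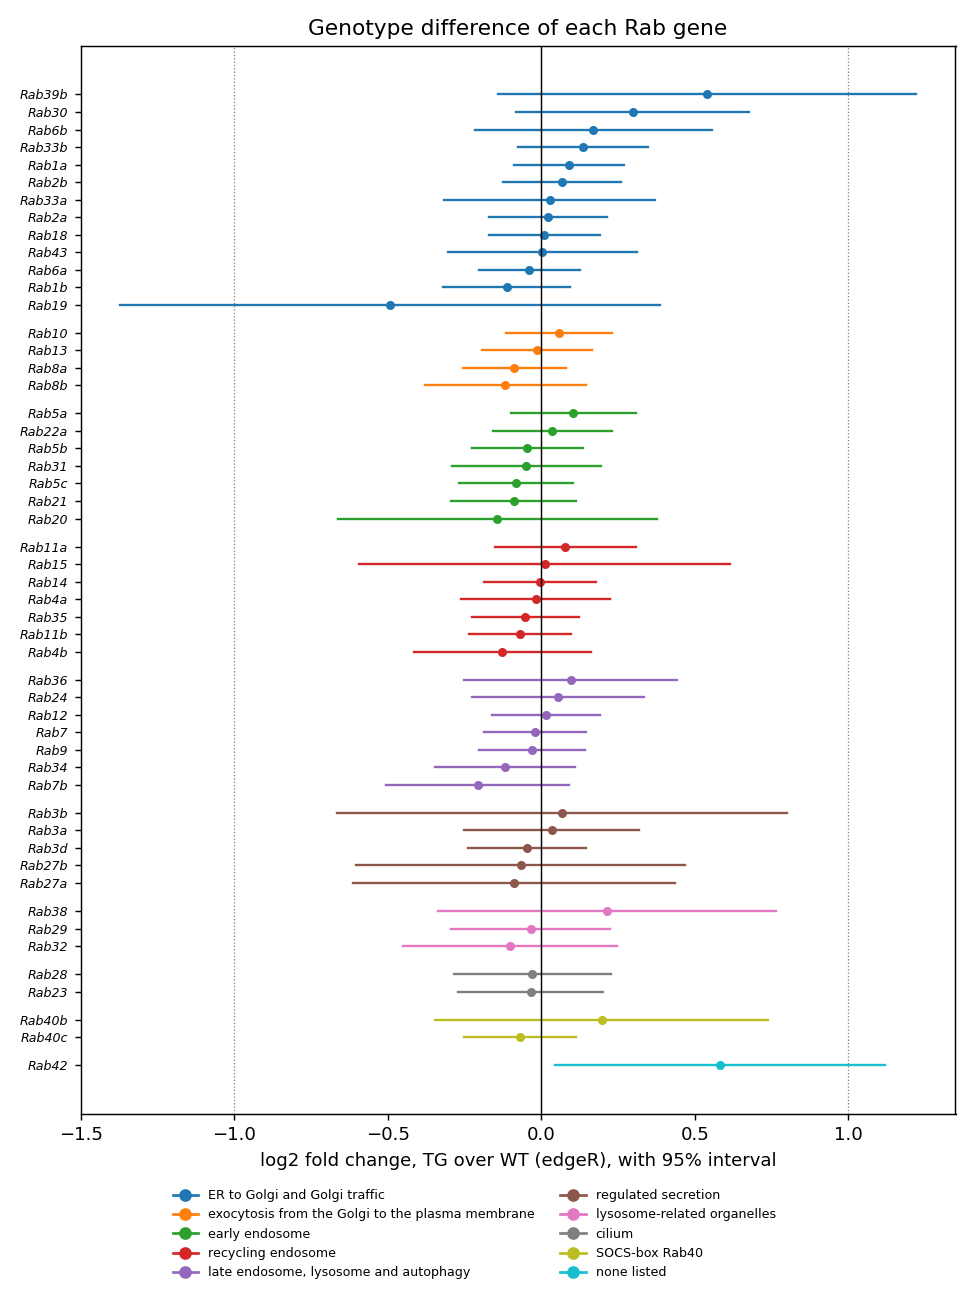
Log2 fold change of each Rab gene, TG over WT, with its 95% interval from edgeR, grouped by role; dotted lines mark 2-fold. All intervals except that of Rab42 cross 0, and 43 of the 51 estimates are smaller than 0.15 in size.

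Rab42, a little-studied member placed in no role list, had the smallest p of the family. It was read at 2.05, 2.07 and 1.81 CPM in TG and at 1.35, 1.31 and 1.29 CPM in WT, so that every TG library lay above every WT library on the CPM scale. On FPKM the groups overlapped, with 1.29, 1.07 and 1.09 in TG and 0.73, 1.08 and 0.79 in WT. The estimated log2 fold change of 0.58 had a standard error of 0.24 and a 95% interval from 0.05 to 1.12, with an unadjusted p of 0.036 and an adjusted p of 0.9997 (edgeR). These levels rest on 175 counts in all 6 libraries.

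The next members by p also failed the adjusted test. Rab39b, a Golgi GTPase with a role in autophagy, stood at 3.88, 1.90 and 2.86 CPM in TG and 2.37, 1.92 and 1.64 CPM in WT (log2 fold change 0.54, SE 0.30). Rab30, of the Golgi, stood at 8.71, 6.60 and 7.76 CPM in TG and 5.71, 6.84 and 6.22 CPM in WT (log2 fold change 0.30, SE 0.17). In both, the groups overlapped through TG replicate 2. Rab7b, which acts between late endosomes and the trans-Golgi network, had 20.1, 20.6 and 17.6 CPM in TG and 22.3, 19.2 and 25.9 CPM in WT (log2 fold change -0.21, SE 0.13). Rab33b, a Golgi GTPase that binds ATG16L1, had 31.7, 28.7 and 28.9 CPM in TG and 27.5, 28.6 and 25.3 CPM in WT (log2 fold change 0.14, SE 0.09), and the groups were separated by the small gap between TG replicate 2 and WT replicate 2. Rab19, linked to the Golgi and to ciliogenesis, was among the lowest at 1.72, 0.919 and 0.700 CPM in TG and 2.10, 1.15 and 1.47 CPM in WT (log2 fold change -0.49, interval from -1.37 to 0.39). Single libraries moved these estimates without turning their sign: Rab39b to 0.26 and Rab30 to 0.20 without TG replicate 1, Rab7b to -0.09 without WT replicate 3, and Rab33b to 0.09 without either TG replicate 1 or WT replicate 3. Rab19 moved to -0.95 without TG replicate 1, to -0.25 without TG replicate 3 and to -0.23 without WT replicate 1.

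The remaining 6 of the 12 genes with the smallest p had estimates between -0.12 and 0.10. Rab1b was read at 184, 190 and 204 CPM in TG and 186, 212 and 225 CPM in WT (log2 fold change -0.11, SE 0.09), and Rab1a at 229, 231 and 223 CPM in TG and 224, 221 and 198 CPM in WT (0.09, SE 0.08). Rab8a, which carries cargo from the Golgi to the plasma membrane and the cilium, stood at 109, 111 and 114 CPM in TG and 113, 123 and 119 CPM in WT (-0.09, SE 0.07). Its relative Rab8b stood at 36.9, 31.4 and 33.6 CPM in TG and 39.9, 39.5 and 31.2 CPM in WT (-0.12, SE 0.12). The groups overlapped in all 4. Rab5a, which drives fusion of early endosomes, had 124, 136 and 126 CPM in TG and 127, 125 and 107 CPM in WT (log2 fold change 0.10, SE 0.09), and Rab34, which acts in lysosome positioning and cilium formation, 51.8, 65.1 and 56.8 CPM in TG and 58.8, 63.4 and 66.0 CPM in WT (-0.12, SE 0.10). Without WT replicate 3, the lowest library of Rab5a, its log2 fold change was 0.03, and without TG replicate 2 as well it was -0.01. Leaving out single libraries gave -0.19 to -0.05 for Rab1b, 0.04 to 0.12 for Rab1a, -0.22 to -0.06 for Rab8b and -0.21 to -0.04 for Rab34.

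Rab11b and Rab40c separated the groups by a small margin. Rab11b was read at 235, 246 and 243 CPM in TG and 248.8, 248 and 263 CPM in WT (log2 fold change -0.07, SE 0.07). Rab40c, which carries a SOCS box and acts in a ubiquitin ligase, was read at 29.2, 28.9 and 28.9 CPM in TG and 30.8, 30.5 and 30.0 CPM in WT, also -0.07 (SE 0.08). The separation of Rab11b depended on the scale, as that of Rab42 did, since on FPKM its highest TG library (122) passed its lowest WT library (121).

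Rab27a, which docks secretory vesicles and lysosome-related organelles, varied most among libraries of all members above 10 FPKM, and is named here after its values were seen. It stood at 87.8, 160 and 121 CPM in TG and 108, 174 and 111 CPM in WT, a coefficient of variation of 29.4% and 28.5%. Replicate 2 was the highest library in both groups. The log2 fold change was -0.09 (SE 0.23), and 17 alternatives gave -0.43 to 0.17.

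Grouped by role, the summed level of every role list differed between the genotypes by less than the larger of the groups' SDs. Rabs of the route between the endoplasmic reticulum and the Golgi and within the Golgi (13 genes) held 24.7% to 25.2% of the family's FPKM in each library, with sums of 499 ± 6.23 FPKM in TG and 496 ± 8.14 FPKM in WT (SD, n = 3 each, as for the sums that follow). Their median log2 fold change was 0.03, with 10 above 0 and 3 below. The 7 Rabs of late endosomes, lysosomes and autophagy held 20.4% to 21.7%, with sums of 415 ± 5.80 and 420 ± 7.96 FPKM and a median of -0.02 (3 above 0, 4 below). The 7 recycling Rabs, Rab35 among them, held 18.7% to 19.2%, with sums of 375 ± 8.95 and 381 ± 4.30 FPKM and a median of -0.02 (2 above, 5 below). The 7 early endosome Rabs held 18.1% to 19.0%, with sums of 363 ± 5.01 and 371 ± 11.9 FPKM and a median of -0.05 (2 above, 5 below).

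Smaller roles held the rest. The 4 exocytic Rabs (Rab8a, Rab8b, Rab10, Rab13) summed to 182 ± 2.80 FPKM in TG and 183 ± 6.70 FPKM in WT, with a median log2 fold change of -0.05. The 5 Rabs of regulated secretion summed to 87.4 ± 14.3 and 89.3 ± 15.8 FPKM, the widest spread of any role, and their share ran from 3.68% to 5.23% with Rab27a. Rab29, Rab32 and Rab38, of lysosome-related organelles, summed to 20.05 ± 1.25 and 20.4 ± 0.736 FPKM. The ciliary Rab23 and Rab28 summed to 27.6 ± 2.20 and 27.9 ± 2.79 FPKM, and Rab40b and Rab40c to 15.4 ± 1.004 and 15.6 ± 0.240 FPKM. In all 9 role lists 0 members were called by edgeR, and 0 reached an unadjusted p under 0.05. Of all tested genes, 1.05% were called and 4.08% reached that unadjusted p.

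Genes that share a number are close relatives, and 26 of the members fall into 12 such sets. In most sets 1 gene dominated the ovary. Rab7 held 97.9% of its set's FPKM in TG and 97.6% in WT, over Rab7b. Rab27a held 98.1% and 98.2% of its set, Rab6a 93.4% and 94.2%, Rab2a 90.4% and 90.6%, and Rab8a 89.1% and 88.9%. The Rab40, Rab4 and Rab3 sets were led by Rab40c (82.4% in TG, 84.8% in WT), Rab4b (75.2% and 76.5%) and Rab3a (73.6% and 72.7%). More even sets were Rab33, with Rab33a at 61.9% and 64.1%, Rab5, with Rab5c at 55.5% and 57.5%, and Rab11 and Rab1. In these last sets Rab11a held 39.9 ± 1.43% in TG and 37.5 ± 3.92% in WT, and Rab1a 44.2 ± 1.68% and 40.9 ± 3.73% (SD, n = 3 each). No set had shares that separated the genotypes. Counts were whole in every library for 47 members. Rab33b and Rab5a had fractional counts in 6 libraries, Rab10 in 4 and Rab1a in 2, as when reads are divided among genes, while Rab33a, Rab5b, Rab5c and Rab1b had whole counts throughout. Rab5a overlaps Pp2d1, Rab10 overlaps Rab10os and Rab1a overlaps Gm51885, but Rab33b overlaps no annotated gene. Rab6a, Rab5b and Rab11b overlap Mrpl48, Pmel and Gm17251 and had whole counts throughout. Which genes share the divided reads was not tested.

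**Figure D3:**
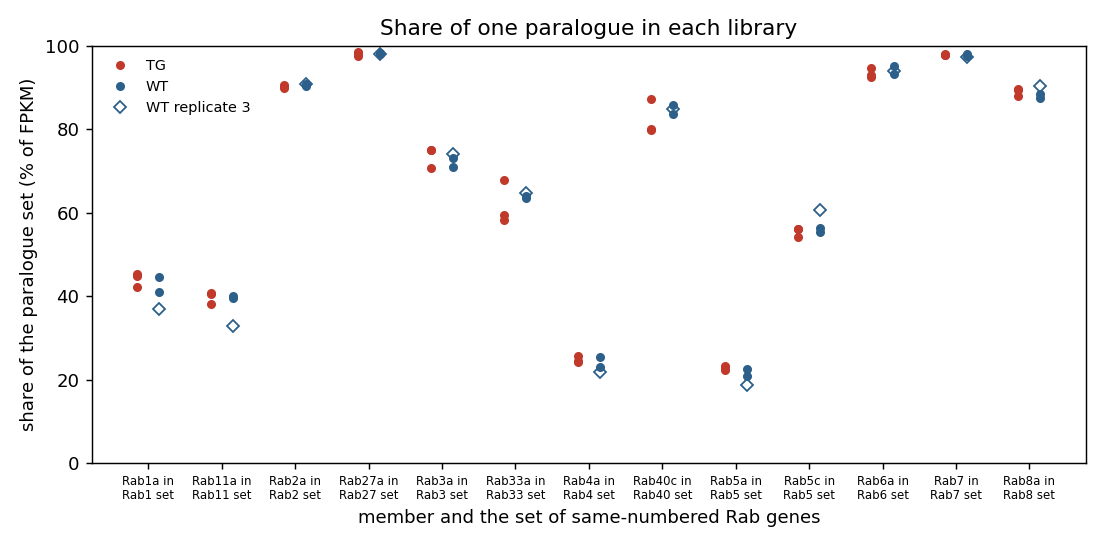
Share of the FPKM of each set of same-numbered Rab genes held by the named member, 1 point per library, with WT replicate 3 as an open diamond. The points of TG and WT overlap in every set, and WT replicate 3 holds the lowest share for Rab1a and Rab11a and the highest for Rab5c.

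WT replicate 3 stood at the edge for many members: it was the lowest of the 6 libraries for 15 genes and the highest for 10. The next were TG replicate 1 (lowest for 14, highest for 7) and TG replicate 2 (lowest for 6, highest for 11). The deviation of WT replicate 3 from the mean of the libraries followed the GC content of the transcript, with a Spearman rho of 0.62 over the 51 genes and 0.44 over 13872 genes with a GC value, which is 98.2% of those tested. For TG replicate 1 and WT replicate 1 the rho over the members was -0.38 and -0.33, and over all genes with a GC value -0.26 and -0.24. For TG replicate 3 it was 0.18 over the members and 0.14 over all. Deviations are taken from the mean of the same 6 libraries, so a rise in 1 library lowers the others. These correlations run across genes of the same libraries, which are not independent replicates, and are given as a description.

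Within the even sets the relatives differ in GC content. Rab1a has 42.0% GC and lay at -0.16 on the log2 scale in WT replicate 3, while Rab1b has 58.9% and lay at 0.17. Rab11a (39.5% GC) lay at -0.25 and Rab11b (48.1%) at 0.09, and Rab5a (42.3%) at -0.21 and Rab5c (54.7%) at 0.11. Rab5b (49.1%) lay at -0.08. In the Rab33 set both members lay below 0, Rab33a (53.5% GC) at -0.06 and Rab33b (45.7%) at -0.17. The log2 fold change between the genotypes had a rho of -0.25 with GC content over the members and -0.21 over all genes, and the part of GC content in these differences was not tested.

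**Figure D4:**
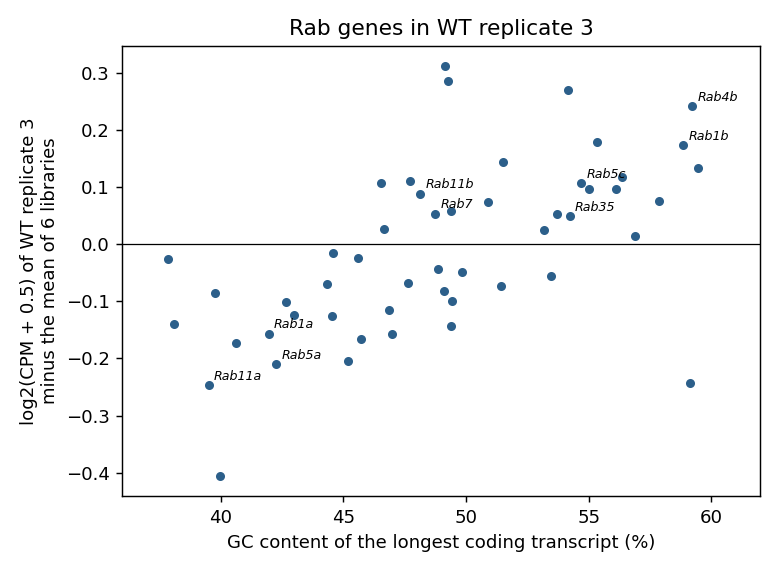
Log2(CPM + 0.5) of each Rab gene in WT replicate 3 minus its mean over the 6 libraries, against the GC content of its longest coding transcript. The points rise from left to right (Spearman rho 0.62, n = 51 genes), with Rab11a at -0.25 and Rab4b at 0.24.

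The regulators of Rab35 other than the transgene were also compared. Of 4 exchange factors, Dennd1a rose and the other 3 were not called. Dennd1b had a log2 fold change of -0.06 and folliculin (Flcn) of -0.06, while Dennd1c was read at 0.44, 0.63 and 0.82 CPM in TG and 1.19, 0.98 and 1.41 CPM in WT (-0.91, SE 0.34, unadjusted p 0.0245, edgeR adjusted p 0.892). Every TG library of Dennd1c lay below every WT library, where 8.25% of all tested genes separated the groups without overlap. The counts of Dennd1c were fractional in all 6 libraries. Of 7 GTPase-activating proteins for Rab35, 0 were called, where 1.05% of all tested genes were. At that share a list of this size would often hold none. The 7 had a median of -0.05, with 1 above 0. Their summed FPKM was 94.2, 83.9 and 93.2 in TG and 94.96, 92.7 and 96.3 in WT. Tbc1d13 had the smallest p, at 57.8, 56.9 and 64.9 CPM in TG and 66.3, 69.2 and 68.5 CPM in WT (log2 fold change -0.18, SE 0.08, unadjusted p 0.0523 in edgeR), followed by Tbc1d24 (0.10) and Tbc1d10a (-0.10).

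**Figure D5:**
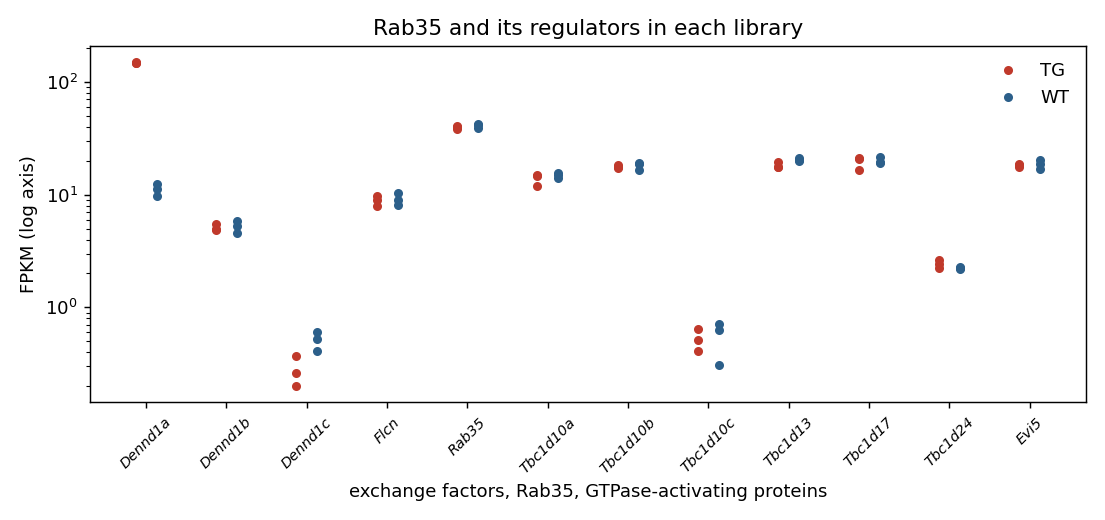
FPKM (log axis) of Rab35, its exchange factors and its GTPase-activating proteins, 1 point per library. Dennd1a is the gene whose groups stand far apart, at 147 FPKM in TG and 11.2 FPKM in WT, while Rab35 lies near 40 FPKM in all 6 libraries.

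Among effectors and partners of Rab35, 11 of 12 listed genes were tested and 0 were called, where 1.05% of all tested genes were. The 11 had a median log2 fold change of -0.08 (4 above 0, 7 below). The smallest p values belonged to Ehd1, a membrane-remodelling ATPase of recycling endosomes, at 75.9, 73.2 and 80.7 CPM in TG and 82.2, 83.6 and 86.5 CPM in WT (-0.13, SE 0.08), to Podxl (-0.25, SE 0.17) and to the lipid kinase Pi4k2a (-0.12, SE 0.09). The Ehd1 groups did not overlap, as in 8.25% of all tested genes, while those of Podxl and Pi4k2a did.

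Machinery of Rabs beyond the Rab35 lists was also compared. Of its genes 0 were called, where 1.05% of all tested genes were. Of 10 genes for prenylation, escort and GDP dissociation inhibitors, 0 were called, with a median of 0.04 (7 above 0), and those with the smallest p were Chm, an escort protein (0.14, SE 0.09), Rabggtb, a transferase subunit (0.12, SE 0.11), and Icmt (-0.11, SE 0.10). Rab exchange factors other than those listed for Rab35 (22 genes, 0 called) had a median of -0.08, with 2 above 0 and 20 below. Of all tested genes 50.7% lay above 0, and in this list 0 genes reached an unadjusted edgeR p under 0.05. The list's summed level was 915 to 941 CPM in TG and 949 to 1001 CPM in WT, a difference that was not tested. The smallest p values belonged to Rin2 (-0.18, SE 0.12), Rab3ip (-0.15, SE 0.10) and Trappc10 (-0.13, SE 0.08). Of 28 other Rab GTPase-activating proteins, 0 were called, with a median of -0.02. Tbc1d14, which acts in autophagy and Rab11 traffic, was read at 57.5, 58.2 and 62.6 CPM in TG and 67.5, 70.6 and 67.8 CPM in WT (-0.21, SE 0.08, unadjusted p 0.0252, edgeR adjusted p 0.906). Its groups did not overlap, as in 8.25% of all tested genes. Tbc1d9 (-0.31, SE 0.22) and Tbc1d22a (-0.12, SE 0.09) came next.

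Of 41 Rab effectors, 40 were tested and 0 were called, where 1.05% of all tested genes were. The 40 had a median of 0.04 (25 above 0, 15 below). Sytl4, a Rab27 effector on secretory granules, was read at 95.2, 81.8 and 73.3 CPM in TG and 71.9, 73.0 and 68.2 CPM in WT (log2 fold change 0.23, SE 0.10, unadjusted p 0.0502 in edgeR). Every TG library of Sytl4 lay above every WT library, where 8.25% of all tested genes separated the groups without overlap. Sytl4 was named for its small p, which favours such a separation. Rilp, which links Rab7 to dynein, was low, at 1.28, 1.32 and 1.23 CPM in TG and 1.401, 2.30 and 1.94 CPM in WT (-0.56, SE 0.28). Unc13d, a Rab27a effector in granule priming, was read at 30.8, 80.4 and 55.9 CPM in TG and 42.3, 136 and 73.5 CPM in WT (-0.59, SE 0.42), and the groups overlapped. Of the uncalled genes in these Rab pathway lists, Dennd1c and Tbc1d14 alone had an edgeR p under 0.05 before adjustment, where 4.08% of all tested genes did, and DESeq2 and limma-voom called none of them.

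Markers of cell types were also compared between the genotypes, and edgeR called none outside the macrophage and myeloid list. All 18 macrophage and myeloid markers had a fold change below 0, with a median log2 fold change of -0.60 and 1 called by edgeR (Fcgr1, -1.79, adjusted p 0.0119). Of the 18, 12 had an unadjusted edgeR p under 0.05, where 4.08% of all tested genes did. The summed level of the 18 was 410 to 441 CPM in TG and 458 to 742 CPM in WT, with none at 0. Lymphocyte markers (6 of 10 tested) had a median of -0.47, endothelial markers (10) -0.16, smooth muscle markers (8) -0.17, oviduct and surface epithelium markers (10) -0.23, neuronal and Schwann cell markers (6) 0.07, oocyte markers 0.06, granulosa markers 0.02, theca markers 0.09 and adipocyte markers (4 of 8 tested) 2.14. Of those 4, Car3, Cfd and Fabp4 were far higher in TG replicate 2 than in any other library. At an unadjusted edgeR p under 0.05, 2 adipocyte and 2 theca markers lay above 0, and 2 endothelial markers and 1 lymphocyte marker below 0. The remaining cell type lists had 0 at that p. Without TG replicate 2 and WT replicate 3, 0 Rab genes were called and the median log2 fold change of the family was -0.034. With 0 Rab genes called, the part of these cell types in the Rab values was not tested.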

How the data were processed

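Whole-ovary RNA of 3 TG and 3 WT mice was sequenced, and the series' design text names 3 animals per genotype. Per the file headers, the authors deposited an estimated count for each gene in each sample. A second set of deposited columns was taken as FPKM from its values, since the headers do not name the unit. Build mm10 and the tools DESeq2 1.4.5, RSEM 1.3.1 and Bowtie2 are credited to the submitters' processing notes. The annotation and strandedness are not given in the sources used here, so reads of overlapping or antisense genes cannot be told apart. The deposited group means were not used.

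Estimated counts were rounded to integers. The test was run with edgeR 4.0.16 under R 4.3.3 (TMM, filterByExpr at 10 counts and 15 in total, two-sided quasi-likelihood test, Benjamini-Hochberg adjustment over 14124 genes, threshold 0.05, genotype as the only factor). Library totals of 17075484 to 18516171 counts and a biological coefficient of variation of 12.5% set the precision. The members, lists and tests were chosen with earlier results of these data known. Values in every library are given for Dennd1a, Rab35, the 12 members with the smallest p, the 10 with the highest mean FPKM and any that passed the test. Each pathway list names at most 3 genes, those with the smallest p, except that all 4 exchange factors of Rab35 are named. Rab27a, Rab40c and the genes named by motif or at the low end were chosen after their values were seen. GC content was taken from the longest protein-coding transcript. The test was tried on simulated data. Alternatives were other scaling factors, other count filters, leaving out libraries, a block on replicate number, DESeq2 1.42.0, and limma 3.58.1 (voom, and trend on log2(FPKM + 1) or log2(FPKM + 0.1)).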

Additional observations from a re-analysis of the deposited data

How the results depend on the processing

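Under 17 alternatives 0 Rab genes were called, and the lowest adjusted p was 0.725 (Rab36, without TG replicate 2 and WT replicate 3, an alternative chosen after seeing the data). Over all genes the alternatives called 119 to 204. At an unadjusted p under 0.05 the count of Rab genes was 0, in place of 1, with at least 50 counts in 3 samples, with the replicate block, with DESeq2 and with limma-trend on log2(FPKM + 1) and log2(FPKM + 0.1). Leaving out single libraries gave 0 to 1. That gene was Rab42 with all libraries, Rab19 without TG replicate 1, Rab39b without TG replicate 2, Rab7b without WT replicate 2 and Rab36 without WT replicate 3. The median log2 fold change of the family was -0.03 to 0.0069 when single libraries were left out (0.0069 without WT replicate 2) and -0.034 without TG replicate 2 and WT replicate 3. Between 0 and 10 members changed sign per alternative, none with a log2 fold change beyond 0.14 in size. Same-numbered TG and WT libraries deviated together with r = 0.28, 0.10 and 0.09, and libraries of unlike number with r from -0.17 to 0.04. Every library correlated best with its own number. Whether the numbers pair the samples cannot be told from these values. With the replicate block 6.05% of all tested genes had an unadjusted edgeR p under 0.05, against 4.08% without it. With the replicate block, edgeR called 159 genes, 0 of them Rab genes, and Unc13d (log2 fold change -0.54, adjusted p 0.0497). The estimate of Rab42 was 0.21 with log2(FPKM + 1), 0.38 with log2(FPKM + 0.1) and 0.53 to 0.64 with the count-based alternatives. The 3 genes whose intervals passed 2-fold were all under 4 CPM.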

Other observations

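Rab27a and its effector Unc13d, both noticed after their values were seen, took the same order of libraries within each genotype. Replicate 1 was the lowest, replicate 3 in between and replicate 2 the highest, at 87.8, 121 and 160 CPM for Rab27a and 30.8, 55.9 and 80.4 CPM for Unc13d in TG, and at 108, 111 and 174 CPM for Rab27a and 42.3, 73.5 and 136 CPM for Unc13d in WT. With 3 libraries per group this order is a description only.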
